A study of Mus musculus with 12 samples.

Results

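The genes described here encode enzymes of the urea cycle and of amino acid metabolism, read through N6-methyladenosine (m6A) on their mRNAs in mouse liver. A gene was a member when the authors' annotation of its peaks held any of 11 KEGG terms for amino acid pathways. Genes that also held one of 7 terms for glycolysis, the citrate cycle, pyruvate or fatty acid metabolism were dropped, as were cytochrome P450, glucuronosyltransferase and glutathione transferase genes by name. Of 140 genes with a term, 24 were dropped for another term and 4 by name. The remaining 112 genes, of 10277 named genes in the table, held 188 of its 17503 peaks. The rule itself used no measured value, but the members were chosen with earlier results of these data known. A single peak was listed for 54 members, a pair of peaks for 45, and 3 or more for 13.

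The study compared liver of wild-type C57BL/6 mice with that of Mettl3-deficient mice of the same strain by MeRIP-seq, in which an anti-m6A antibody pulls down fragments of poly(A) RNA. The 12 libraries formed 4 groups of 3 biological replicates: immunoprecipitated (IP) RNA and input mRNA of each genotype. The labels name neither the Mettl3 allele, a Cre driver, the sex nor the age of the mice beyond the word postnatal, and do not say whether a replicate was 1 animal. The data were the authors' own peak-by-peak comparison of the genotypes, with a log2 fold change and a false discovery rate (FDR) per peak and no value per library.

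Peaks with a deposited FDR of 0.05 or below are referred to as called. Which genotype the fold change divides by which is not said in the header. METTL3 is the enzyme that writes m6A, so a negative change likely stands for less m6A in Mettl3-deficient liver, but nothing but the design bears this reading, and the text speaks of negative and positive changes. Without values per library no error between mice could be given for any peak, read depth is unknown, and whether the deposited FDR covers the spread between mice is not stated. In whole liver, fewer cells of a type and less RNA per cell cannot be told apart. A gene's leading peak is its peak of smallest FDR.

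The liver clears amino acid nitrogen through the urea cycle, in which carbamoyl phosphate and aspartate donate nitrogen and arginase releases urea from arginine. The carbon skeletons enter central metabolism through dedicated breakdown routes, and methionine supplies S-adenosylmethionine, the methyl donor of every m6A writer. On mRNA, m6A made by the METTL3 complex lies mainly around stop codons and in 3′ untranslated regions (UTRs), whereas the antibodies in use also bind m6Am, a cap-adjacent nucleotide made by another enzyme on transcripts that begin with adenosine.

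Because peaks at the 5′ and 3′ ends of these genes differed in their balance of signs, the transcript starts that lay under called 5′ UTR peaks are shown first. The windows hold 10 bases before and 20 bases from the RefSeq transcript start (assembly GRCm38.p6, the same build as mm10), on the gene's own strand, with the first transcribed base in capitals. The 7 starts shown with a positive change were picked from peaks at most 358 bp wide, which lie close around the start. The eighth, of Fahd1, is the one start under a negative peak, which is 1473 bp wide, spans the whole gene and overlaps Hagh, and so does not mark the start.
Gnmt, chr17:46729146-46729175, minus strand: cctgagagccAggcgccggtcaggatggtg
Agxt, chr1:93135230-93135259, plus strand: ctggagaaacAgggactcatcaaccaggcc
Sat2, chr11:69622042-69622071, plus strand: gagggggctcAgaatttaaggccttttctg
Adssl1, chr12:112620037-112620066, plus strand: aggcgtccgcAtttaatggagcgagagctc
Hoga1, chr19:42045860-42045889, plus strand: gtccaaactcAgttcccctgtggtcacaga
Bckdha, chr7:25658742-25658771, minus strand: tgtgagaaagGaggagtggttattagccaa
Hibadh, chr6:52640281-52640310, minus strand: tagttcacagGccgtgtgtgaggcggcgga
Fahd1, chr17:24850283-24850312, minus strand: cttggcctgtAgactcggtctgcaagtggg

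In the authors' deposited table the peaks over these starts changed by 0.99 in Gnmt, 0.75 in Agxt, 1.36 in Sat2, 1.01 in Adssl1, 0.74 in Hoga1, 1.09 in Bckdha, 1.52 in Hibadh and -1.34 in Fahd1 on the log2 scale. The first transcribed base was A in Gnmt, Agxt, Sat2, Adssl1 and Hoga1 and G in Bckdha and Hibadh, so positive peaks lay over starts of both kinds. The start of Auh, not shown, lay under a positive peak 270 bp wide and also began with G. In all, 23 RefSeq starts of 22 member genes lay in a called 5′ UTR peak. Of these, 10 began with A, 10 with G, 3 with C and 0 with T, so A made up 43.5%. Under positive peaks alone, without the start of Fahd1, 9 of 22 member starts began with A (40.9%). A was the first base at 34.4% of 32851 RefSeq starts, at 33.8% of the 1050 starts in positive 5′ UTR peaks of any listed gene and at 30.8% of the 364 in negative ones. The letters GGAC, the core of many m6A sites, were searched on the transcribed strand only, in the first 50 bases. They occurred at 6 of the 23 member starts (26.1%), all under positive peaks (6 of 22, 27.3%), and at 18.9% of all RefSeq starts. Among the listed starts in positive and negative 5′ UTR peaks the shares were 21.6% and 20.6%. These are matches of letters, and which bases were modified was not measured.

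More peaks of the enzyme genes were positive than negative, whereas the reverse held in the table as a whole. Of 188 member peaks, 162 were called, 61 of them negative and 101 positive, and 26 were not called. Among all listed peaks 76.2% were called, 40.6% negative and 35.6% positive, so the 53.7% of member peaks that were positive stood above that background and the 32.4% that were negative below it. The median change was 0.625 over member peaks and 0.34 over all listed peaks. By leading peak, 59 members were positive (52.7%), 44 negative (39.3%) and 9 not called. Over all genes 81.1% of leading peaks were called, 47.6% negative and 33.6% positive, and the medians were 0.565 for members and -0.52 for all genes.

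The positive changes were small and the negative ones larger. The median over called positive member peaks was 0.73 and over called negative ones -1.22, against 0.73 and -1.34 for all listed peaks. With a limit of at least 1 on the absolute log2 change, the leading peak was negative in 24 members and positive in 12, so the balance turned to the negative side. The same limit left 35.3% negative and 7.81% positive among leading peaks of all genes. The FDR of 13 member peaks stood at the table's floor, a log10 FDR of -434. Of these, 11 were negative, among them peaks of Arg1, Nags, Chdh, Glyctk, Keg1, Glyat, Il4i1, Aldh8a1, Tat and Tst. The other two, in Ahcy and Gnmt, were positive, and both of these enzymes act directly on S-adenosylmethionine or its product S-adenosylhomocysteine.

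The balance of signs differed with the place of the peak on the transcript, with a clear majority of 1 sign in 5′ UTRs only. In 5′ UTRs, 51 of 61 member peaks were positive, 3 negative and 7 not called, beside 53.4% positive and 23.0% negative among all listed 5′ UTR peaks. Of called 5′ UTR peaks, 5.56% of members' were negative (95% Wilson interval 1.91 to 15.1%, counting error over peaks only), against 30.1% of all listed. The 3 negative ones were in Fahd1, Tst and Bcat2. In 3′ UTRs, 46 of 103 member peaks were negative, 42 positive and 15 not called, beside 48.9% negative and 32.1% positive in the table. Negative peaks made up 52.3% of the members' called 3′ UTR peaks (42.0 to 62.4%) and 60.4% of all listed ones. In other exons, 12 of 24 member peaks were negative, each by 1 or more on the log2 scale, 8 were positive and 4 not called, beside 38.6% negative and 23.9% positive. The share of negative calls in exons, 60.0%, lay close to the 61.8% of all listed exon peaks.

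**Figure D1:**
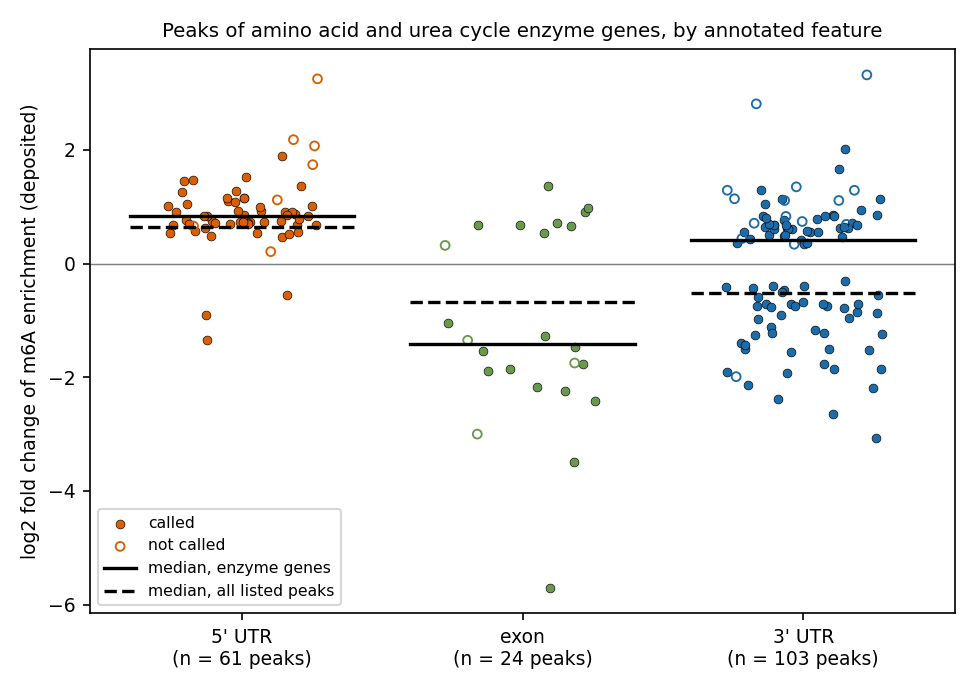
Log2 fold change (vertical axis) of each of the 188 member peaks in 5′ UTRs, other exons and 3′ UTRs, filled where called and open where not, with solid lines at the member medians and dashed lines at the medians of all listed peaks. Of the 61 peaks in 5′ UTRs, 51 were called positive and 3 negative, while the 103 peaks in 3′ UTRs divided into 46 negative and 42 positive.

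Most of the 5′ UTR peaks, 54 of 61, covered the annotated transcript start, and of those 46 were positive and 3 negative. The 7 away from the start had 5 positive and 0 negative calls. Deposited widths run along the genome and include introns, up to 75013 bp in Pcca, and 52 member peaks were wider than 1000 bp. Among the 36 member 5′ UTR peaks of at most 1000 bp, 28 were positive and 2 negative. Among all listed peaks, 58.8% of those covering a start were positive and 20.5% negative, against 32.5% and 32.8% away from a start and 50.7% and 15.5% among 5′ UTR peaks of at most 1000 bp. In 3′ UTRs the same width limit left 30 negative and 37 positive member peaks, so negative peaks made up 44.8% of the called ones and the majority turned (56.2% of all listed).

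Within single genes the same contrast appeared. In 25 member genes, peaks of both UTRs were called, and the called peak of smallest FDR was taken for each UTR. The annotation can place the 2 peaks on different transcripts of the gene, as it does for Hibch. The 5′ UTR was positive and the 3′ UTR negative in 12 of them (48.0%), and both were positive in 13 (52.0%), among them Kmo, whose weaker second 3′ UTR peak was negative. No member had the opposite pattern or a negative change in both, whereas among 1475 genes of the table with both UTRs called, 521 (35.3%) had a positive 5′ and a negative 3′ UTR, 576 (39.1%) were positive in both, 86 had the opposite and 292 were negative in both. The change was lower in the 3′ than in the 5′ UTR in 23 of the 25, the exceptions being Auh and Pccb, and in 1084 of the 1475 (73.5%). The median difference was -0.53 in members and -0.45 over all such genes.

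The widest gaps between the UTR peaks of one gene were in genes of glutamine, histidine, kynurenine and valine metabolism. In the authors' deposited table, Ppat, which uses glutamine for the first committed step of purine synthesis, changed by 1.47 in its 5′ UTR and by -1.90 in its 3′ UTR. Carns1, the carnosine synthase, stood at 1.46 and -1.50 per the authors' deposited table, its wide 5′ UTR peak overlapping the span of Tbc1d10c. Aldh8a1, a dehydrogenase of the kynurenine route, stood at 1.10 and -1.77 there, and Hibch, a hydrolase of valine breakdown, at 1.28 and -1.43. The authors' deposited table gave 0.71 and -1.85 for Aspa, which cleaves N-acetylaspartate, and 0.90 and -1.52 for Glyat, which conjugates acyl groups to glycine. Smaller pairs of the same kind in the authors' deposited table were Gls2 (0.92 and -0.96), Gcat (0.70 and -1.17), Arg1 (0.47 and -1.26), Pycrl (0.78 and -0.87), Mccc1 (1.05 and -0.56) and Hoga1 (0.74 and -0.30). Some of the 5′ UTR peaks had weak FDRs in the authors' deposited table. Their log10 FDR was -1.49 in Ppat and in Aspa, -1.44 in Pycrl and -1.97 in Carns1. The 5′ UTR peak of Ppat also overlaps the span of Paics.

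**Figure D2:**
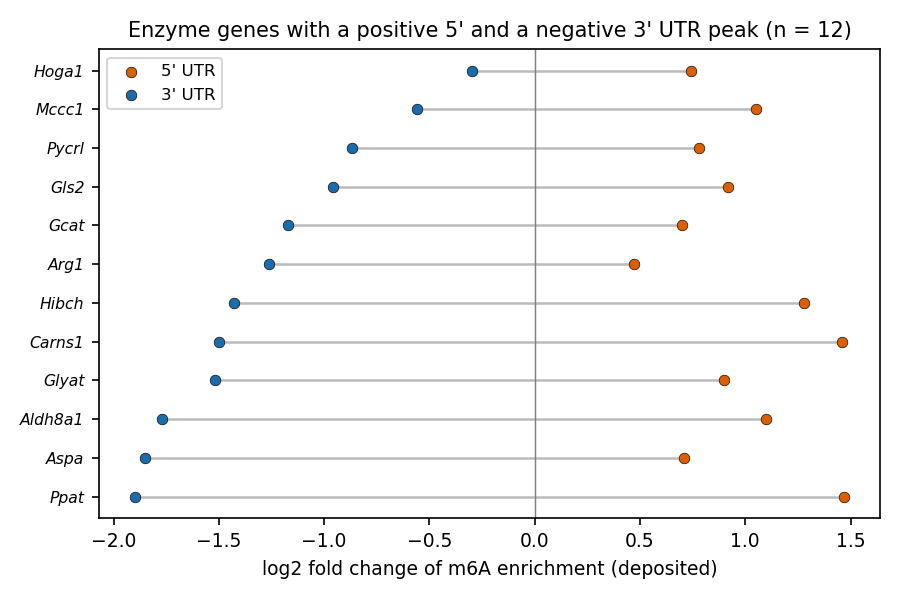
Log2 fold change (horizontal axis) of the called 5′ UTR and 3′ UTR peaks of the 12 member genes with a positive 5′ and a negative 3′ UTR, 1 row per gene, joined by a line. The 3′ UTR values run from -1.90 in Ppat to -0.30 in Hoga1, and the 5′ UTR values from 0.47 in Arg1 to 1.47 in Ppat.

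Within 3′ UTRs, the share of negative calls was lower for peaks near the end of the gene. Of 67 called member 3′ UTR peaks of at most 1000 bp, 51 lay in the RefSeq span of a gene with a known strand, 13 had no strand, and 3 lay outside the span, in Kmo (-0.77), Tdo2 (-1.24) and Bhmt2 (0.64) per the authors' deposited table. Of the 51, 25 reached to within 50 bp of the RefSeq gene end or across it, and 7 of them (28.0%, 14.3 to 47.6%) were negative. Of 18 that ended more than 500 bp before it, 11 (61.1%, 38.6 to 79.7%) were negative, and the intervals of the groups overlapped. The 8 between had 4 negative calls. The table as a whole showed the same order, with 37.6% of 1805, 46.2% of 463 and 75.9% of 1984 called peaks negative. The median change of member peaks was 0.61 near the end and -0.44 far from it.

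**Figure D3:**
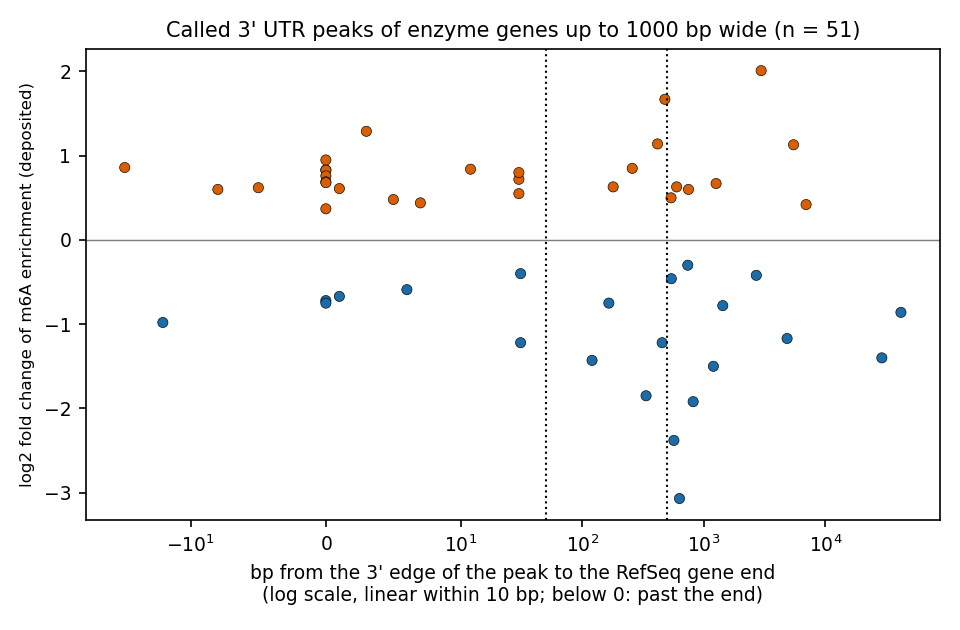
Log2 fold change of called 3′ UTR peaks of member genes, at most 1000 bp wide, against the distance in bp from the peak's 3′ edge to the RefSeq gene end (log scale, linear within 10 bp of the end, values below 0 past it), with dotted lines at 50 and 500 bp and orange for positive, blue for negative. Of the 25 peaks within 50 bp of the end 18 are positive, and of the 18 peaks more than 500 bp away 11 are negative.

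In 6 members, called 3′ UTR peaks of both signs lay on one gene. Glul, the glutamine synthetase of hepatocytes around the central vein, had a change of -0.78 at the peak 1429 bp before its gene end and 0.55 at the peak 30 bp before it in the authors' deposited table. Amd1, which makes the aminopropyl donor for polyamines, had -2.38 at 566 bp and 0.72 at 30 bp in the authors' deposited table. Agxt2, a mitochondrial aminotransferase, had -1.22 at 453 bp and 0.48 at 5 bp there. The authors' deposited table also gave both signs for Adss (-0.43 and 0.86), Dnmt3a (-0.75 and 1.13) and Kmo (-0.77 and 0.60). The positive peak was the one further to the 3′ side in 5 of the 6. The exception was Kmo, whose negative peak lies past the RefSeq end, while its positive peak lies close to that end. Over all genes with both signs and a known strand the positive peak lay further to the 3′ side in 364 of 441 (82.5%).

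By pathway list, the median leading peak was negative in the urea cycle and glutamate lists and positive in the other lists. The median of all genes was -0.52, so the -0.725 of the glutamate list lay near it. The order depended on the grouping, since by the authors' KEGG terms the median was also negative for phenylalanine metabolism (-0.67 over 11 members) and tryptophan metabolism (-0.46 over 15). The groups below are lists of pathway genes in which a gene may stand more than once. They took in 104 of the 112 members, with 15 members in more than one list. A gene without a listed peak is not thereby shown to lack m6A.

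**Figure D4:**
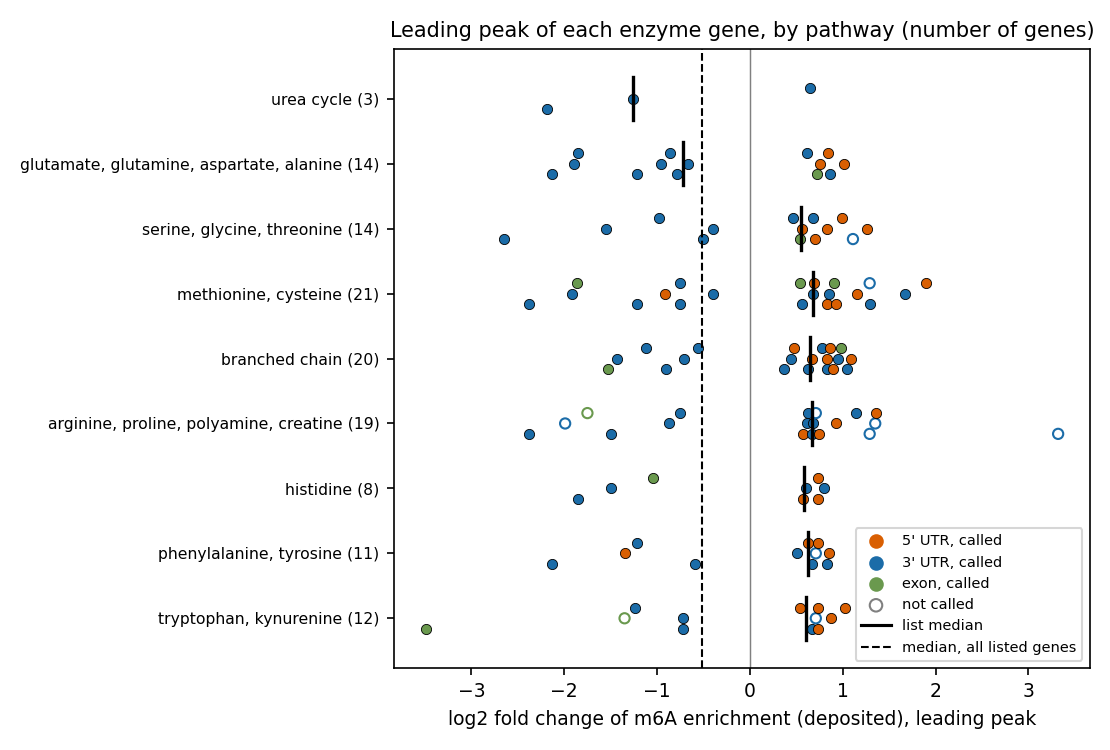
Log2 fold change (horizontal axis) of the leading peak of each member gene by pathway list (rows, with the number of members), coloured by feature, open where not called; solid bars are list medians and the dashed line is the median over all listed genes, -0.52. The urea cycle list has a median of -1.26 over 3 genes and the glutamate list -0.725 over 14, while the other lists have medians from 0.55 to 0.68.

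Of 9 urea cycle genes, Nags, Otc and Arg1 were members. Nags makes N-acetylglutamate, the activator of carbamoyl phosphate synthetase, and was negative at both its peaks in the authors' deposited table, -2.19 in the 3′ UTR and -2.25 in the second exon. Arg1, the arginase that releases urea, changed in the authors' deposited table by -1.26 in its 3′ UTR and 0.47 in its 5′ UTR. Otc, which makes citrulline, was positive in its 3′ UTR, with a change of 0.65 in the authors' deposited table. The mitochondrial carriers Slc25a15 (-2.02) and Slc25a13 (-2.67), which move ornithine and aspartate, fell outside the annotation rule and were negative in the authors' deposited table. Cps1, Ass1, Asl and Arg2 had no listed peak.

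Among the enzymes of glutamate, glutamine, aspartate and alanine, 14 of 30 genes were members, with 8 leading peaks negative and 6 positive. Their 26 peaks divided the other way, into 11 negative, 13 positive and 2 not called. The genes led by a negative peak included the transaminase Got2 (-0.67) and the D-aspartate oxidase Ddo (-0.86) in the authors' deposited table, besides Glul, Gls2, Aspa, Ppat and Agxt2. Agxt2 was negative at 3 of its 4 peaks. The alanine transaminase Gpt was positive in both UTRs, 0.84 and 0.36 in the authors' deposited table. Agxt, which removes glyoxylate in peroxisomes, had a 5′ UTR peak only. The dehydrogenases Aldh4a1 and Aldh5a1, which end proline and GABA breakdown, changed by 0.61 and 0.72 in the authors' deposited table. The amino acid oxidase gene Il4i1 had a peak at -2.13 per the authors' deposited table, but that peak lies within the span of Nup62 and outside the RefSeq span of Il4i1. It cannot be assigned to Il4i1 mRNA from these data, but it is counted among the 8 negative leading peaks.

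In serine, glycine and threonine metabolism, 14 of 30 genes were members, with 5 leading peaks negative, 8 positive and 1 not called (median 0.55). The steps from choline to glycine were mixed. Chdh, which oxidizes choline, was negative at all 3 peaks, in the authors' deposited table -2.42 in the second exon and -1.55 and -1.50 in the 3′ UTR. The next enzymes were smaller in size in the authors' deposited table, Dmgdh at -0.50, Pipox at -0.40 and Sardh at 0.69 and 0.46. Glyctk, the glycerate kinase, was negative at both peaks, -2.65 and -2.17 in the authors' deposited table. Shmt1, which links serine to folate, was negative at -0.98 in the authors' deposited table, with a second peak that was not called. On the positive side, the authors' deposited table gave 1.26 in the 5′ UTR for Gldc, the glycine decarboxylase, and 0.68 in the 3′ UTR for Gamt, which methylates guanidinoacetate to creatine. Psph, the last enzyme of serine synthesis, was positive at both its 5′ UTR peaks, 0.90 and 0.56 in the authors' deposited table.

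In the methionine cycle, 6 genes were grouped after their values were seen, Mat2a, Mat2b, Gnmt, Ahcy, Ahcyl1 and Bhmt2. Their leading peaks were positive, and of their 10 peaks 9 were positive, 0 negative and 1 not called. Other members that use S-adenosylmethionine did not share this, since Amd1, which decarboxylates it, and the DNA methyltransferase Dnmt3a were led by negative peaks. Mat2a, the S-adenosylmethionine synthetase of most tissues, changed in the authors' deposited table by 1.29 and 0.67 in the 3′ UTR and by 1.37 in the seventh exon. As background, the 3′ UTR of Mat2a mRNA is methylated by METTL16, an enzyme separate from METTL3; which enzyme made the m6A under these peaks was not measured, and the leading Mat2a peak also overlaps the span of Ggcx. Mat2b, its regulatory subunit, stood at 1.90 in the 5′ UTR per the authors' deposited table. Gnmt, which consumes the methyl donor on glycine, stood at 0.99 and Ahcy, which hydrolyses S-adenosylhomocysteine, at 1.67 in the authors' deposited table, with the FDR of both at the floor. Ahcyl1, related to Ahcy, changed by 0.69 in the authors' deposited table. Bhmt2, which remethylates homocysteine, changed by 0.64 and 0.54 in the authors' deposited table. Mat1a, the hepatocyte synthetase, had no listed peak.

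**Figure D5:**
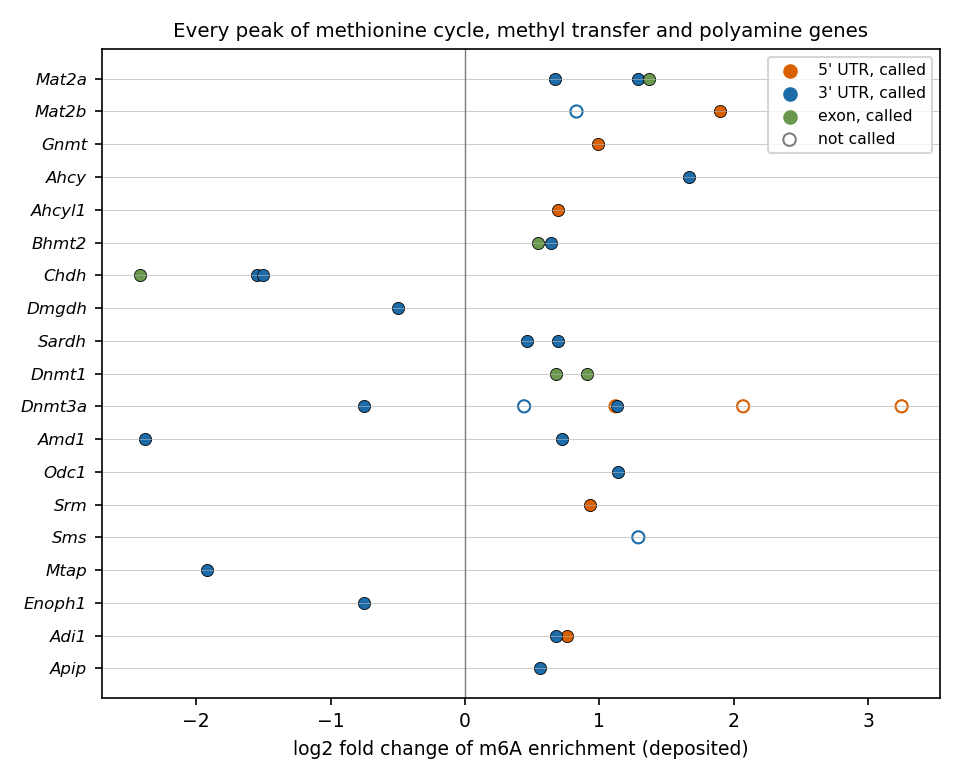
Log2 fold change of each listed peak (horizontal axis) of member genes of the methionine cycle, methyl transfer, methionine salvage and polyamine routes, 1 row per gene, coloured by feature and open where not called. The called peaks of Mat2a, Mat2b, Gnmt, Ahcy, Ahcyl1 and Bhmt2 lie between 0.54 and 1.90, while Mtap and Amd1 hold peaks at -1.92 and -2.38.

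The wider methionine and cysteine list had 21 members of 34 genes, with 8 leading peaks negative, 12 positive and 1 not called. Methionine salvage was divided in the authors' deposited table, with Mtap, which cleaves methylthioadenosine, at -1.92 and Enoph1 at -0.75, but Apip at 0.56 and Adi1 at 0.76 and 0.68. The DNA methyltransferase Dnmt1 was positive at both exon peaks, 0.68 and 0.91 in the authors' deposited table. For cysteine, Cth, which makes it, stood at 0.83 and Cdo1, which oxidizes it, at 1.15 and 0.66 in the authors' deposited table. The 2 subunits of glutamate-cysteine ligase, the first enzyme of glutathione synthesis, had opposite signs in the authors' deposited table. The catalytic subunit Gclc stood at -1.86 in its last exon and the modifier subunit Gclm at 1.15 in the 5′ and 0.85 in the 3′ UTR. The neighbouring sulfurtransferase genes Tst and Mpst were both negative, at -0.91 and -0.40 in the authors' deposited table.

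Of 41 genes for arginine, proline, polyamines and creatine, 19 were members, with 4 leading peaks negative, 9 positive and 6 not called. In polyamine synthesis, Odc1, the entry enzyme, changed by 1.14 in the 3′ UTR and Srm, the spermidine synthase, by 0.93 in the 5′ UTR per the authors' deposited table, against the -2.38 of the leading Amd1 peak. Sms, the spermine synthase, was not called. Sat2, of the acetyltransferase family, stood at 1.36 in the authors' deposited table. In proline synthesis, Aldh18a1 changed by -0.75 in the 3′ UTR per the authors' deposited table, and Pycrl was divided between its UTRs. The aminopeptidase Lap3 was positive in both UTRs, 1.16 and 0.63 in the authors' deposited table.

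The branched-chain amino acid route had 20 members of 29 genes, with 14 leading peaks positive, 6 negative and 0 not called (median 0.65). Among members, the early steps were mainly positive. Bcat2, the mitochondrial transaminase, had 5′ UTR peaks of both signs, -0.55 and 0.48 in the authors' deposited table. The dehydrogenase subunits Bckdha and Dbt changed by 1.09 and 0.78 in the authors' deposited table. Dld (-0.48), Bckdk (-0.98) and Ppm1k (-1.61), in the same list but outside the annotation rule, were negative in the authors' deposited table. In the leucine branch, the authors' deposited table gave 0.83 for Ivd and 0.90 for Mccc2, and all 4 Auh peaks were positive, from 0.67 to 1.05. Mccc1, the partner subunit of Mccc2, was divided between its UTRs.

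In the valine branch, the authors' deposited table gave 0.86 for Acad8, 0.98 and 1.52 for Hibadh and 0.95 for Aldh6a1, with Hibch led by its negative 3′ UTR peak. In the final route through propionyl-CoA, 3 of 4 leading peaks were negative, but its 9 peaks divided into 4 positive, 3 negative and 2 without a call. The authors' deposited table gave -0.90 for Pcca, -0.71 for Mcee and -1.53 in the second exon of Mmut, whose 3′ UTR peak was positive at 0.58. The Pcca peak, 75013 bp wide, runs past the RefSeq gene end and overlaps the span of Ggact. Pccb, the partner subunit of Pcca, was positive at all 3 peaks, from 0.50 to 0.83 in the authors' deposited table. Hmgcs1, a cytosolic enzyme of cholesterol synthesis that the annotation placed here, changed by 0.63 in the 3′ UTR per the authors' deposited table. Hsd17b10, of isoleucine breakdown, was positive at 0.67 and 0.37 in the authors' deposited table, and Acsf3 at 0.44.

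Of 11 histidine genes, 8 were members, with 5 leading peaks positive and 3 negative. All 3 member enzymes between urocanate and glutamate were positive in the authors' deposited table, Uroc1 at 0.80, Amdhd1 at 0.73 and Ftcd at 0.60. Hal, the enzyme that makes urocanate, fell outside the annotation rule and was negative at -1.0 in the authors' deposited table. Hdc, which makes histamine, was negative at both exon peaks. Its -5.70 in the authors' deposited table was the lowest value of any member peak, but its log10 FDR of -1.81 was far weaker than that of its other peak, -4.21 at a change of -1.04. Cndp2, a dipeptidase, and Ddc, a decarboxylase of aromatic amino acids, were positive at 0.57 and 0.73 in the authors' deposited table.

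For phenylalanine and tyrosine, 11 of 23 genes were members, with 6 leading peaks positive, 4 negative and 1 not called. Tat, the tyrosine transaminase, stood at -1.22 and Hgd, the homogentisate dioxygenase, at -0.59 in the authors' deposited table, both in the 3′ UTR. Fah, the last enzyme, was positive in both UTRs, 0.69 and 0.51 in the authors' deposited table. The annotation also placed Mif (0.83) and Maob (0.67) here, positive in the authors' deposited table.

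Tryptophan breakdown had 12 members of 25 genes, with 6 leading peaks positive, 4 negative and 2 not called. The kynurenine pathway was split by place on the transcript as well as by gene. Ido2, a dioxygenase of the first step, had the most negative leading peak of all members, -3.49 in the eighth exon, and 0.53 in the 5′ UTR per the authors' deposited table. Tdo2, the main first enzyme in liver, had a peak at -1.24 per the authors' deposited table, but at a peak outside its RefSeq span. Afmid, which acts next, was negative at all 3 rows, at -0.42 and, in overlapping rows, -0.72 and -0.72 in the authors' deposited table. Kynu and Haao were positive in both UTRs, at 0.73 and 0.56 and at 0.54 and 0.42 in the authors' deposited table. Kmo was positive at 0.87 in its 5′ UTR per the authors' deposited table. Kyat1, a side-branch transaminase, was negative at -0.72 there, and the aldehyde oxidase Aox1 positive at 1.02. Acmsd, which fell outside the annotation rule, was negative at -2.60 in the authors' deposited table.

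The remaining 8 members stood in none of the lists. Glyat and its chromosome 19 neighbour Keg1, both of the glycine N-acyltransferase family, were led by negative 3′ UTR peaks, Keg1 at -3.07 with a second peak at -1.76 in the authors' deposited table. Carnmt1, which methylates carnosine, had the highest called change of any member, 2.01 in the authors' deposited table. Aoc2, an amine oxidase, was negative at both exon peaks, -1.47 and -1.89 in the authors' deposited table. Catalase (Cat) stood at -0.46 and the aminoacylase Acy1 at 0.76 in the authors' deposited table. Nat8l was not called.

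The 9 members without a called leading peak were Azin2, Ckmt1, Dhtkd1, Maoa, Nat8l, Phgdh, Prodh, Smox and Sms. Their changes ran from -1.99 in Azin2 to 3.32 in Smox in the authors' deposited table, so some were as large as called ones. Of 12 paralogue pairs looked up, 10 had a listed peak in 1 gene only, among them Arg1, Gls2, Mat2a, Got2, Gpt and Ido2 of their pairs. Bhmt and Bhmt2 were the pair with both listed, at 0.72 and 0.64 to 0.54 in the authors' deposited table.

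Markers of liver cell types were looked up in the same table. Of 9 hepatocyte markers 8 had a listed peak, 4 negative and 4 positive. Periportal hepatocyte markers had 3 negative and 1 positive leading peak, pericentral ones 5 and 3, cholangiocyte ones 2 and 1, and macrophage and leukocyte ones 2 and 3 with 1 not called (-2.43 to 2.06). The 1 listed erythroid marker was positive. Of 9 endothelial markers 7 were listed and all 7 were positive (0.25 to 1.22), and of 9 stellate and matrix markers 6 were listed, 5 positive and 1 not called (0.33 to 3.46). With the median over the whole table, 0.34, taken as the centre, the lowest of these, Cdh5 at 0.25 and Pdgfrb at 0.33, become negative, while 0 called positive member peaks do. The part of other cell types in the positive changes of the enzyme genes was not tested. Member peaks at 13 places overlap the span of another protein-coding gene, such as those of Ppat with Paics, Gls2 with Spryd4 and Shmt1 with Smcr8.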

How the data were processed

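Liver m6A IP and input libraries of both genotypes were reduced by the authors to 1 table of peaks, which was the only data used. The submitters' processing notes name HISAT2 2.1.0 and the build mm10. How peaks were called, filtered and compared is not given in the sources. For each peak the authors deposited, per the file headers, a log2 fold change, a log10 FDR, here a score with a floor at -434, a rounded p-value, and other columns such as coordinates, width, feature class and distance from the transcript start.

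Of 17692 rows, 189 without a gene name were left out. Members, leading peaks and counts were computed with Python 3.11.15 and pandas 2.3.3. A call was a deposited FDR of 0.05 or below. Shares carry 95% Wilson intervals. No test was run, since the table holds no values per library. Counting was checked on simulated data.

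All 112 members matched a RefSeq symbol or synonym (GRCm38.p6), and 181 of their 188 peaks overlapped the RefSeq span. Distances to the gene end used the strand in RefSeq's promoter table, and genes missing there got none. Start windows came from RefSeq. The planned motif search in peaks was not run, as it needs a genome.

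Named genes were any member in a pathway list and, among other members, the leading peaks at both extremes and those with called peaks of both signs. Genes outside the membership rule (Slc25a15, Slc25a13, Hal, Acmsd, Bhmt, Dld, Bckdk, Ppm1k) were named as pathway partners after their values were seen. The members and lists were chosen with earlier results of these data known. Alternatives were other FDR limits, a limit on size, centring on the median of all peaks, width, RefSeq overlap, other choices of leading peak and wider membership. Some members are counted but not reported by name here.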

Additional observations from a re-analysis of the deposited data

How the results depend on the processing

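Across 7 results and 11 alternatives, of which 9 were planned and 2 (leaving out peaks that overlap another protein-coding gene, and counting overlapping rows once) were chosen after seeing the data, 69 comparisons were made. In 64 the value stayed within the limits set for no change. These limits were a fixed ratio for a count and the interval of the main value for a share or the median. Only the median could be labelled as reversed, and it stayed positive. It takes in uncalled peaks too, so other FDR limits and the limit on size could not change it. A turn in the balance of negative and positive counts, as under the limit on size, had no label. The 5 comparisons that moved all came from the limit of 1 on the absolute log2 change. With it, negative member peaks went from 61 to 35, positive member peaks from 101 to 22, members with a negative leading peak from 44 to 24, members with a positive one from 59 to 12, and the negative share of called 3′ UTR peaks from 52.3 to 78.6%. With peaks of at most 1000 bp only, that share was 44.8%, on the other side of an even split. Over the other alternatives, members with a negative leading peak ranged from 33 to 54 and those with a positive one from 51 to 73, with positive ones more frequent in each. The negative share of called 5′ UTR peaks ranged from 4.17 to 9.09% over all alternatives. Centring on the median of all listed peaks lowered the median of leading peaks from 0.565 to 0.225 and changed no called sign.

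No paired analysis was possible because the table has no values per library, and so no fit without a replicate was run. The table lists peaks the authors kept, so shares are of listed peaks. Neither depth nor mRNA level per genotype was measured from it, and the sign convention rests on the design.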
